A study of Mus musculus with 2 samples.

Results

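The genes described here are the nuclear genes for the subunits of oxidative phosphorylation, chosen by symbol: names beginning Ndufa, Ndufb, Ndufc, Ndufs, Ndufv, Uqcr, Cox4, Cox5, Cox6, Cox7, Cox8 or Atp5, together with Sdha, Sdhb, Sdhc, Sdhd, Cyc1 and Cycs. The rule uses no measured value. The rule found 95 members among 21461 nuclear protein-coding genes matched to an annotation, in tables of 69691 gene rows. The members were 36 genes of complex I, 4 of complex II, 9 of complex III, 19 of complex IV, 16 of complex V, 1 cytochrome c gene and 10 genes that the letter rule admits although they are not subunits of a complex.

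The samples were 2 poly(A) RNA-seq libraries of G1E-ER4, a mouse erythroid line made from Gata1-deficient cells that carries a Gata1 protein fused to the estrogen receptor ligand-binding domain. Both libraries came from cells given 10 nM 17beta-estradiol for 24 h, and the labels number them as biological replicates 1 and 2. They form a single group from a single immortalized line, so the values below describe that state and no condition is compared with another. The labels do not say what separates the biological replicates, so the SDs measure the spread between these libraries, which may be partly technical.

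Oxidative phosphorylation is carried out in the inner mitochondrial membrane. Complexes I and II pass electrons from NADH and succinate to ubiquinone, complex III passes them to cytochrome c, complex IV passes them to oxygen, and complex V makes ATP from the proton gradient. Most subunits are encoded in the nucleus and imported, while a smaller set is encoded in mitochondrial DNA. Erythroid precursors need mitochondria for haem synthesis and remove them late in maturation.

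The gene rows summed to 20412826 expected counts for replicate 1 and 18564086 for replicate 2. All 10 erythroid markers reached 1 TPM in each library, among them Alas2 with 906.5 and 929.4 TPM and Klf1 with 411 and 413 TPM in replicates 1 and 2. Gata1 had 2714 and 3180 TPM, a row that does not separate the introduced sequence from the endogenous one. TPM divides the expected count of a gene by its effective length and scales each library to a fixed sum, so levels can be set beside each other between genes. Markers of striated muscle summed to 0.11 TPM in replicate 1 and 0.18 TPM in replicate 2, and none of the 3 testis markers or the 2 brown fat markers had a read. Of the 5 megakaryocyte markers 3 reached 1 TPM, and of the 5 myeloid markers 1 did.

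Of the 95 members, 90 had at least 1 TPM in each library, or 94.7%, against 41.2% of nuclear protein-coding genes. At least 100 TPM in each library was reached by 61 members, or 64.2%, against 5.47% of nuclear protein-coding genes. The median member had 168 TPM in replicate 1 and 152 TPM in replicate 2, or 160 ± 11.4 TPM (SD, n = 2). Over the nuclear protein-coding genes that reached 1 TPM in both libraries the median was 20.7 TPM. The members together held 2.54% ± 0.0669 of all TPM (SD, n = 2) and 1.38% of expected counts, since their transcripts are short: the median length of detected members was 688 bases, against 2156 bases for detected nuclear protein-coding genes.

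**Figure D1:**
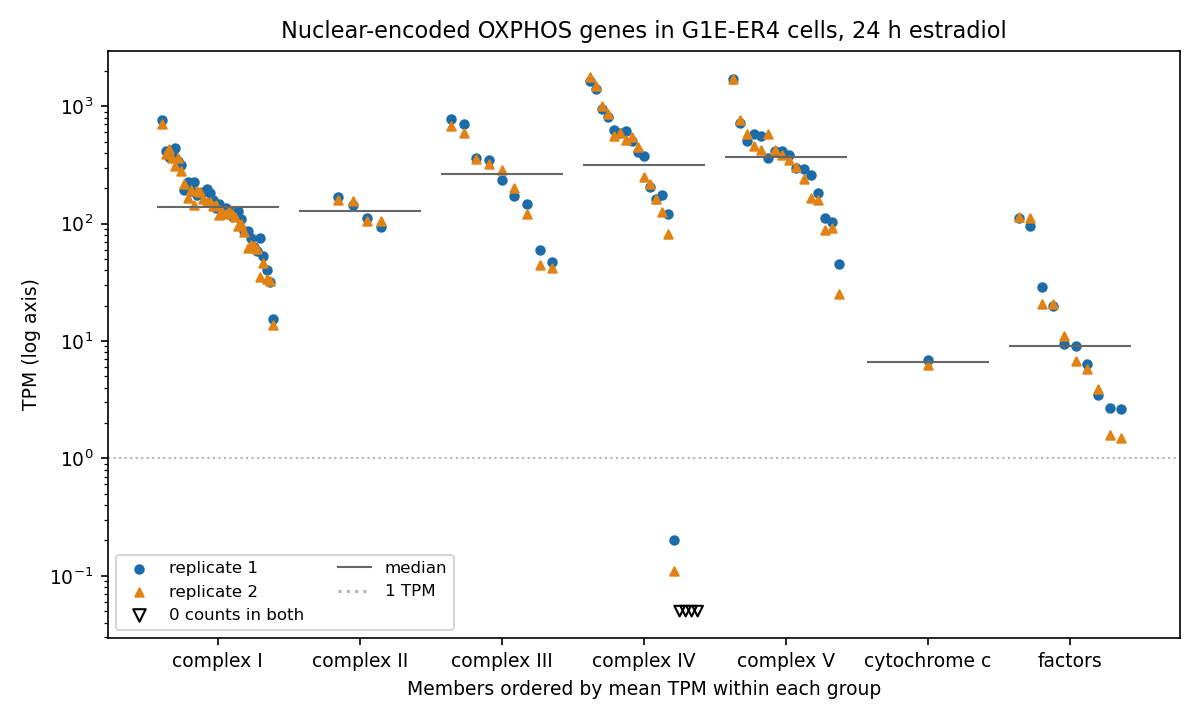
TPM of each member (log axis) by complex, ordered within each complex by mean TPM, with replicate 1 as circles and replicate 2 as triangles; horizontal lines are the mean over both libraries of the group median, and open triangles are genes with 0 counts in both libraries. Complexes I, II, III and V have every member above 1 TPM, while 5 complex IV genes lie below it.

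Complex I, the NADH dehydrogenase, had all 36 of its nuclear members above 1 TPM, and their median was 138 ± 5.31 TPM (SD, n = 2). Its 7 core subunits, which carry the flavin and iron-sulfur clusters or surround them, lay close together, between 128 TPM for Ndufs1 and 191 TPM for Ndufs7. The 29 accessory subunits, which surround the catalytic core, spread 50.5-fold around a median of 126 TPM. Ndufa3, an accessory subunit, was highest with 767 TPM in replicate 1 and 702 TPM in replicate 2, and was followed by Ndufv3 with 406 ± 15.2 TPM and Ndufb8 with 401 ± 40.5 TPM (SD, n = 2). At the low end stood Ndufs4, an accessory subunit whose loss causes Leigh syndrome in humans, with 15.5 and 13.6 TPM. Ndufb4 had 32.1 and 32.4 TPM and Ndufb2 had 39.9 and 33.9 TPM. The low value of Ndufb4 is taken up again below, where reads of a sequence copy are described.

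The level of Ndufa11, a membrane-arm subunit, depended on the transcript model. In the deposited tables its 1 transcript was 2661 bases long and gave 58.4 and 60.4 TPM, while GENCODE M21 gives 545 bases. With the shorter model the same counts would correspond to 301 and 311 TPM. Values with M21 lengths, here and below, keep the deposited counts. Whether all of those reads fit the M21 transcript was not tested. The model also mattered for Ndufa3, whose deposited transcript of 349 bases is 515 bases in M21; its rescaled value was 480 TPM.

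Complex II, succinate dehydrogenase, which also belongs to the citric acid cycle, showed the narrowest range of the complexes. Its membrane anchors Sdhc and Sdhd had 164 ± 5.54 and 150 ± 7.50 TPM, and its catalytic subunits Sdha and Sdhb had 108 ± 4.41 and 100.1 ± 9.01 TPM (SD, n = 2). The highest member was 1.64-fold above the lowest, over fewer genes than in any other complex. The 7 core subunits of complex I spanned 1.49-fold. All 4 genes are encoded in the nucleus, which makes this the complex with no mitochondrial subunit.

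Complex III, the cytochrome bc1 complex, had 9 members with a median of 263 ± 35.9 TPM (SD, n = 2). In TPM, the small subunits Uqcrq and Uqcrh were highest. Uqcrq had 781 and 677 TPM, and Uqcrh, the hinge protein that faces cytochrome c, had 712 and 588 TPM, in replicates 1 and 2. Cyc1, cytochrome c1, had 173 and 202 TPM. The Rieske iron-sulfur protein Uqcrfs1 was lowest with 47.3 and 41.7 TPM, next to the core protein Uqcrc2 with 59.6 and 44.3 TPM. The other core protein, Uqcrc1, was higher, with 237 and 288 TPM. In expected counts Uqcrc1 was the highest of the complex, with 6008 and 5624, against 4508 and 3581 for Uqcrq. Its length was 1612 bases, against 395 bases for Uqcrq. The small subunit Uqcr10 had 360 ± 2.58 TPM, and Uqcrb, the ubiquinone-binding protein, 134 ± 19.8 TPM (SD, n = 2).

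Complex V, the ATP synthase, had a median of 370 ± 5.85 TPM (SD, n = 2) over 16 genes. Atp5b, the catalytic beta subunit of the F1 head, had 1701 TPM in replicate 1 and 1693 TPM in replicate 2. The alpha subunit gene Atp5a1 had 714 and 770 TPM, the delta subunit gene Atp5d 414 and 424 TPM and the gamma subunit gene Atp5c1 297 and 304 TPM. Atp5e was the lowest of the head and central stalk with 103 and 92.3 TPM. From Atp5b to Atp5e, the genes of the head and central stalk ranged 17.4-fold in mRNA level.

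The 3 genes of the c-ring, the rotor embedded in the membrane, encode proteins that end alike. These proteins differ in the part before, which holds the targeting sequence. The translated sequences of Atp5g1 and Atp5g2 share their last 78 residues, as do those of Atp5g2 and Atp5g3. Those of Atp5g1 and Atp5g3 share their last 86. Atp5g1 held 47.9% of the c-ring TPM in replicate 1 and 58.9% in replicate 2, Atp5g2 27.6% and 24.3%, and Atp5g3 24.5% and 16.8%. Atp5g1 was the highest in both libraries. On the log2 scale, with 1 TPM added to both, Atp5g1 exceeded Atp5g2 by 1.03 ± 0.34 and Atp5g3 by 1.39 ± 0.60, while Atp5g2 exceeded Atp5g3 by 0.35 ± 0.26 (SD, n = 2). The last of these is of about the size of the spread between the libraries. Atp5g2 has a sequence copy elsewhere in the genome, Gm10175, identical to it over 645 bases. Gm10175 had 360 and 491 expected counts, against 3280 and 2444 for Atp5g2, in replicates 1 and 2. With copies added as summed TPM, the 3 log2 ratios were 0.82, 1.42 and 0.61, in the same order. With copy counts on the member's length they were 0.85, 1.41 and 0.56. The shares above are without copies.

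Other complex V genes were abundant as well. The peripheral stalk, which holds the head still, ran from 100.4 TPM for Atp5j to 492 TPM for Atp5h. Of the small membrane subunits, Atp5k had 523 ± 87.2 TPM and Atp5l 475 ± 157 TPM (SD, n = 2), while Atp5mpl, a small proteolipid, was lowest with 45.0 and 25.3 TPM.

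Complex IV, cytochrome c oxidase, held both abundant members and all 4 members without reads. Its highest members were Cox5b with 1649 and 1762 TPM, Cox6a1 with 1393 and 1489 TPM and Cox8a with 946 and 1015 TPM. The lowest detected member was Cox5a with 121 and 82.4 TPM. The median over all 19 genes was 315 ± 93.0 TPM; over the 14 detected it was 538 TPM, since 5 tissue-restricted forms lay below 1 TPM.

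Several complex IV subunits exist as a general form and as a form known mainly from other tissues. Ndufa4l2, a paralogue of Ndufa4, was counted in complex IV and as a restricted form, an assignment that was not tested. Of the 8 restricted forms, 5 were not detected. Cox4i2 (the lung form), Cox7b2, Cox8b (heart and skeletal muscle) and Cox8c (testis) had 0 counts in both libraries. Against 3 counts per library, Cox4i1 was at least 1847-fold higher than Cox4i2, Cox7b at least 1382-fold higher than Cox7b2, and Cox8a at least 1616-fold higher than Cox8b and at least 2180-fold higher than Cox8c. The Cox7b bound was 713-fold in expected counts, and most Cox7b TPM lay on a transcript of 180 bases. Cox6a2, the muscle form, had 2 counts in replicate 1 and 1 count in replicate 2. Cox6a1 was 6963-fold above it in replicate 1, with an exact 95% Clopper-Pearson interval of 1927 to 57503, and 13554-fold above it in replicate 2, with an interval of 2432 to 535385. Intervals and floors cover counting error only.

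The other 3 restricted forms were abundant. Ndufa4l2, a paralogue of the complex IV subunit gene Ndufa4 that is induced by hypoxia in other cells, had 587 TPM in replicate 1 and 592 TPM in replicate 2, and its whole TPM lay on 1 coding transcript of 960 bases. An overlap of 32 exonic bases with Shmt2, on the opposite strand, is the part of this gene whose reads cannot be told apart without strand. Ndufa4 had 174 and 125 TPM, so that the log2 ratio of Ndufa4 to Ndufa4l2 was -1.99 ± 0.34 (SD, n = 2). Ndufa4l2 held 79.8% ± 3.78 of the TPM of the pair (SD, n = 2).

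Cox6b1, whose product lies on the outer face of the enzyme, had 815 and 866 TPM, against 405 and 452 TPM for Cox6b2, a form known from testis. The log2 ratio of Cox6b1 to Cox6b2 was 0.97 ± 0.05, and Cox6b2 held 33.7% ± 0.744 of the TPM of the pair (SD, n = 2). With M21 lengths the log2 ratio was 0.66. Testis markers had no reads. No window of 36 bases of Cox6b2 was found in another gene. Transcripts classed as coding held 70.2% of its TPM in replicate 1 and 64.8% in replicate 2.

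Cox7a2, the liver form, had 162 and 163 TPM, against 207 and 216 TPM for Cox7a1, the heart and skeletal muscle form. The log2 ratio of Cox7a2 to Cox7a1 was -0.38 ± 0.04 (SD, n = 2). The sign turned round when expected counts were used in place of TPM, to 0.75, because the Cox7a2 transcript is longer (754 bases, against 364 bases). With the GENCODE M21 lengths of 659 and 393 bases, Cox7a2 had 187 and 188 TPM, against 190.1 and 198 TPM for Cox7a1, a log2 ratio of -0.05. Which of the 2 genes was higher therefore depends on the lengths used. Of the 5 muscle markers listed, Ckm, Mb and Myh4 had no reads. Acta1 had 2.1 and 3.14 expected counts and Myh6 had 2.34 and 3, in replicates 1 and 2. Cox7a2l, a factor of respiratory supercomplexes with a similar name, had 113 TPM in both libraries, without the reads of its copy Gm6969. On the Cox7a2l length, the counts of both rows together correspond to 181 and 185 TPM. That is above the deposited values of Cox7a2, 162 and 163 TPM, but below its 187 and 188 TPM with M21 lengths. The Cox7a2l row alone was below Cox7a2 with either length.

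**Figure D2:**
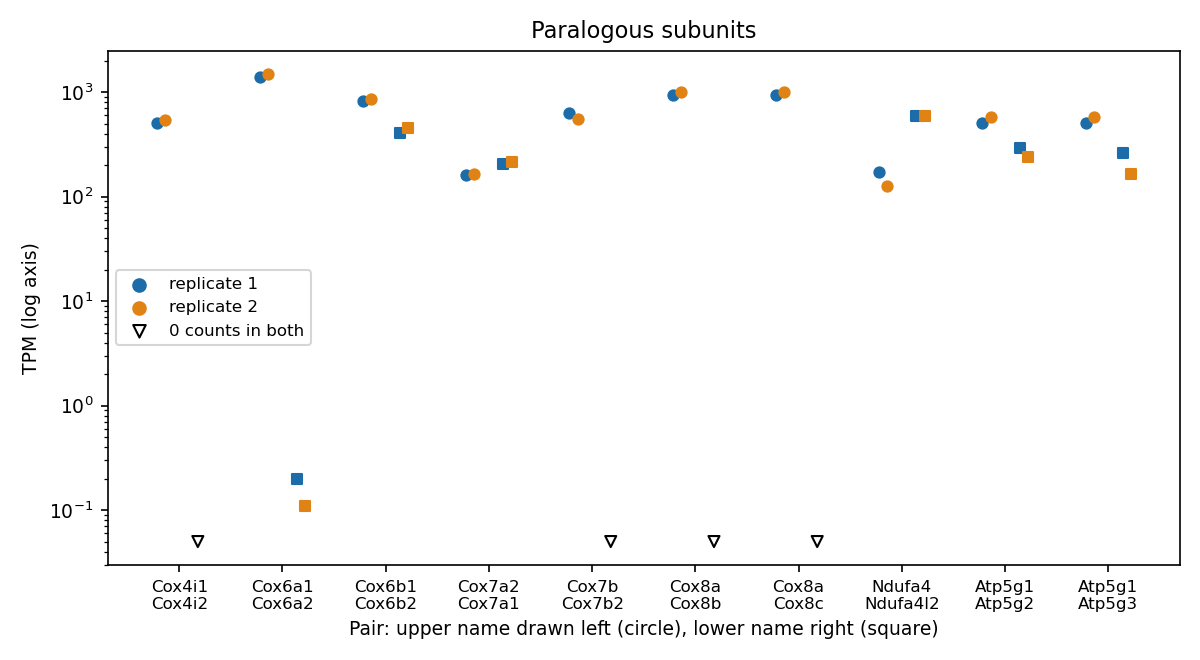
TPM (log axis) of 10 pairs of paralogous subunits, with the first gene named on the axis drawn as circles at the left and the second as squares at the right, replicate 1 in blue and replicate 2 in orange; open triangles are genes with 0 counts in both libraries. Cox6b2, Cox7a1 and Ndufa4l2 lie at 207 TPM or higher in each library; 5 other genes drawn at the right lie below 1 TPM.

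The promoters of Cox6b1, Cox6b2 and Cox7a1 are shown because a restricted form was abundant beside its partner. RefSeq (GRCm38.p6) gave windows of 300 bases, 250 before and 50 after a transcription start, for 77 of the 95 members. Ndufa4l2, also an abundant restricted form, had no such window. Capitals mark matches, on either strand, to the GATA motif AGATAA or to the ETS motif CCGGAAG:
Cox6b1, chr7:30626065-30626364, minus strand: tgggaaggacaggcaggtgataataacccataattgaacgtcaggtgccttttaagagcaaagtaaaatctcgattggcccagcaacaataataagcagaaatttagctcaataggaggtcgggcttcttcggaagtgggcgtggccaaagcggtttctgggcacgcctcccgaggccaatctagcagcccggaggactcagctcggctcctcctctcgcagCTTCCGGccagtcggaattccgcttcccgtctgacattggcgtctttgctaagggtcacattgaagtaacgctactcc
Cox6b2, chr7:4753045-4753344, minus strand: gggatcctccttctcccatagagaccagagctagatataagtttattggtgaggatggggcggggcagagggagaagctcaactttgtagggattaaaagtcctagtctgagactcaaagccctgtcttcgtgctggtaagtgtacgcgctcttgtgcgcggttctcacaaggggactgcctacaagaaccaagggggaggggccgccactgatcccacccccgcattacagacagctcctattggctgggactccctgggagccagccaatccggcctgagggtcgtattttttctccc
Cox7a1, chr7:30183921-30184220, plus strand: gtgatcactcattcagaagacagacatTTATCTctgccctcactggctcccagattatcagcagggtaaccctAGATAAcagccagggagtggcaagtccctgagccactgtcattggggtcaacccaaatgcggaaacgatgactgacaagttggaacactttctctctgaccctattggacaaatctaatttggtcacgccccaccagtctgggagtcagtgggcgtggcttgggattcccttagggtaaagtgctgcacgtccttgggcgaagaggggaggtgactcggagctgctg

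The Cox7a1 window held AGATAA once on each strand and the Cox6b1 window held CCGGAAG once, on the reverse strand. Only the spelling AGATAA was searched for GATA. The similar letters TGATAA occur, unmarked, in the Cox6b1 window and, on the reverse strand, in the Cox7a1 window. The marks therefore do not set the Cox7a1 and Cox6b1 windows apart by GATA-like letters. Cox6b2 held none of these motifs. AGATAA was present in 7.32% of 82 member windows, against 11.2% of all 32851 windows of this length. The NRF1 motif GCGCATGC was present in 15.9% of member windows, against 2.71% of all windows, the ETS motif in 22.0%, against 8.86%, and the YY1 motif AAGATGGCG in 9.76%, against 1.40%. Also searched were the GC box GGGCGG, in 45.1% of member windows, against 35.7%, and the CCAAT box, in 43.9%, against 37.4%. Both strands were searched. These are matches of letters and not measured binding.

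Some members share long stretches of sequence with copies elsewhere in the genome, and reads of 36 bases from such stretches fit both places. Of the 88 members with at least 50 counts on average, 19 had a copy that shared at least 100 windows of 36 bases with them. Copies were searched for the members only, so whether this share is unusual among nuclear protein-coding genes was not tested. The expected counts of a member then depend on how the reads were divided. Ndufb4 (chr16:37647170-37654453, minus strand, mm10) had 482 and 439 expected counts, while Ndufb4c, a processed pseudogene on chromosome 15 identical to it over 390 bases, had 1906 and 1738. On the Ndufb4 length, the counts of both rows together correspond to 159 and 161 TPM, against 32.1 and 32.4 TPM for the Ndufb4 row alone. The sum of the deposited TPM, in which the copy has the shorter length of 390 bases, was 367 TPM in both libraries. The first 120 coding bases show the identity, with no base in capitals because none differs:
Ndufb4: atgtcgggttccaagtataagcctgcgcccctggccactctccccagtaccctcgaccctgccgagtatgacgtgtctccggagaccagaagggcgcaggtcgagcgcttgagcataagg
Ndufb4c: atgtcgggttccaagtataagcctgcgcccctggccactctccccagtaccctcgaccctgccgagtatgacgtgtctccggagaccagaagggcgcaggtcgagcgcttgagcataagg

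Cycs, somatic cytochrome c, which carries electrons between complexes III and IV and also acts in apoptosis, was the lowest detected member apart from the factors. It had 6.89 TPM in replicate 1 and 6.27 TPM in replicate 2, from 342 and 256 expected counts on a gene model of 3123 bases. Its copies Gm10053, Gm10108, Gm13772 and Gm11625 together had 1297 and 1154 expected counts. The annotation classes Gm10053 as protein-coding and the others as processed pseudogenes. On the Cycs length, the counts of Cycs and its copies together correspond to 33.1 and 34.5 TPM. The sum of the deposited TPM, each on its own and mostly shorter length, was 199 and 221 TPM. The testis form Cyct had 0.10 TPM in replicate 1 and 0 TPM in replicate 2. Capitals mark the bases that differ between Cycs and the pseudogene Gm13772 in the first 150 coding bases:
Cycs: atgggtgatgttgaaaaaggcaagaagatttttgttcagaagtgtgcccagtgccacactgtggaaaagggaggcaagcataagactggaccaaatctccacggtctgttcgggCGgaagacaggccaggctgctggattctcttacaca
Gm13772: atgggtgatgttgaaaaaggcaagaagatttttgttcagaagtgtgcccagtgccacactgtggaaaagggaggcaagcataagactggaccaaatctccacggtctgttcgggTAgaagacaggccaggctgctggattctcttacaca

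The differing bases turn codon 39 of Cycs into a stop codon in Gm13772. The window upstream of Cycs, chr6:50566520-50566819 on the minus strand, held the NRF1 motif, in capitals: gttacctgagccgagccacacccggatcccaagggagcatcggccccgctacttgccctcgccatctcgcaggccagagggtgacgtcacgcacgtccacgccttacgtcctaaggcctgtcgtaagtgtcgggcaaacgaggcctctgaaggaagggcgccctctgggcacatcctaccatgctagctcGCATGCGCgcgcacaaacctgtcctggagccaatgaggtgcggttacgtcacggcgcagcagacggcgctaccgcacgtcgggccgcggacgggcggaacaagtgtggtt

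Further members had copies with many counts. Cox7c had 2886 and 2149 expected counts, and its copy Gm12338 had 1478 and 1112. Cox5b had 11928 and 10865, and Gm11273, classed as protein-coding, had 2423 and 2276. Cox7a2l had 1889 and 1728, and Gm6969 had 1133 and 1094. Ndufs5 had 672 and 447 expected counts beside 623 and 496 for BC002163. The levels of these members depend on how reads were divided between the rows, and whether the copies are transcribed was not tested. Exons of another gene also overlap those of 27 members, for 25 of them on the opposite strand. Overlaps too were counted for the members only, without the share over all genes. The share of exonic bases was highest for Ndufb6, with 39.0% under Smim27, a gene at 8.83 and 7.28 TPM. Of Ndufa13, 30.0% lay under Tssk6, which had no reads.

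**Figure D3:**
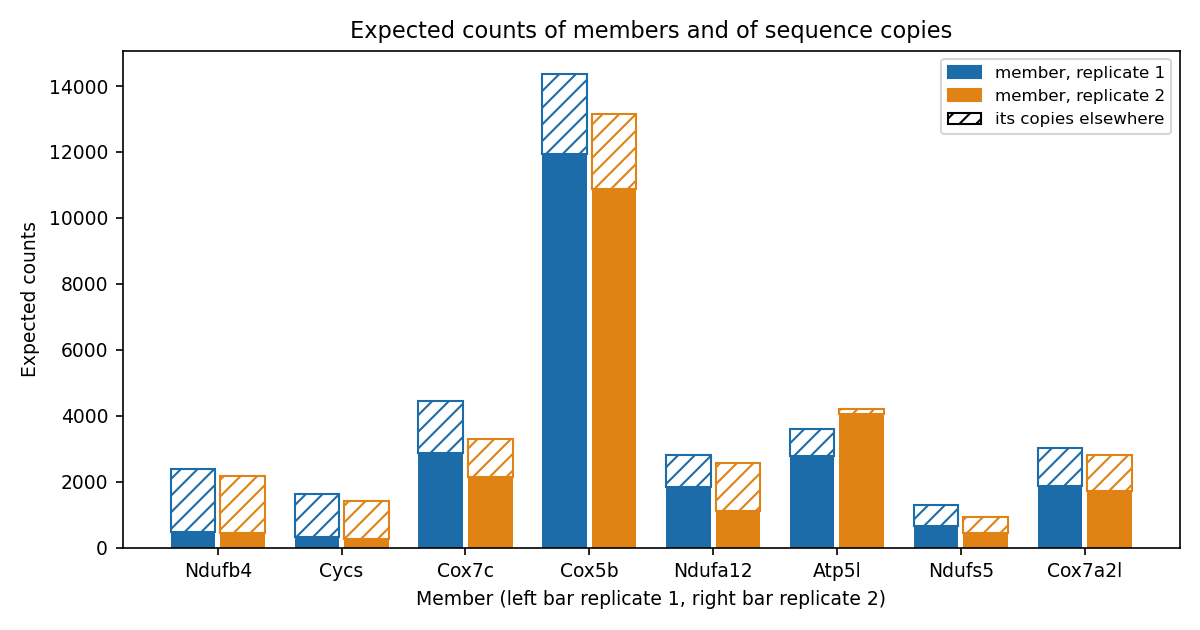
Expected counts of 8 members (solid) and of their sequence copies elsewhere in the genome (hatched), with replicate 1 as the left bar and replicate 2 as the right bar of each pair. For Ndufb4 and Cycs the copies hold more counts than the member in both libraries.

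Between the libraries, 6 of the 88 members with at least 50 counts on average differed by more than 1.5-fold, or 6.82%, against 3.82% of nuclear protein-coding genes at the same minimum. Of these 6, 5 were higher in replicate 1, or 83.3%, near the 76.8% among all genes that far apart. Ndufc1 had 75.7 and 34.8 TPM, Atp5mpl 45.0 and 25.3 TPM, Atp5g3 261 and 166 TPM, and Cox6c 381 and 249 TPM, in replicates 1 and 2. Atp5l was the member higher in replicate 2, with 364 and 585 TPM. Ndufa12, a complex I accessory subunit, had 228 and 144 TPM.

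For Atp5l and Ndufa12 the copies moved the other way. Atp5l had 2779 and 4071 expected counts, while its copy Gm10221 had 797 and 127. Ndufa12 had 1856 and 1116, while its copy Gm15920 had 970 and 1441. With all copies added, the libraries differed 1.24-fold for Atp5l and 1.05-fold for Ndufa12 in summed TPM, and 1.29-fold and 1.05-fold on the member's length. The number of members more than 1.5-fold apart then fell to 4, against 6 for the members alone. For Ndufc1, Atp5mpl and Atp5g3 no copy was found, and the copy of Cox6c, Cox6c2, had 3.29 and 0 expected counts. Over the 88 members the log2 ratio of replicate 1 to replicate 2 had a median of 0.11 and an SD of 0.27, against -0.0022 and 0.27 over nuclear protein-coding genes.

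**Figure D4:**
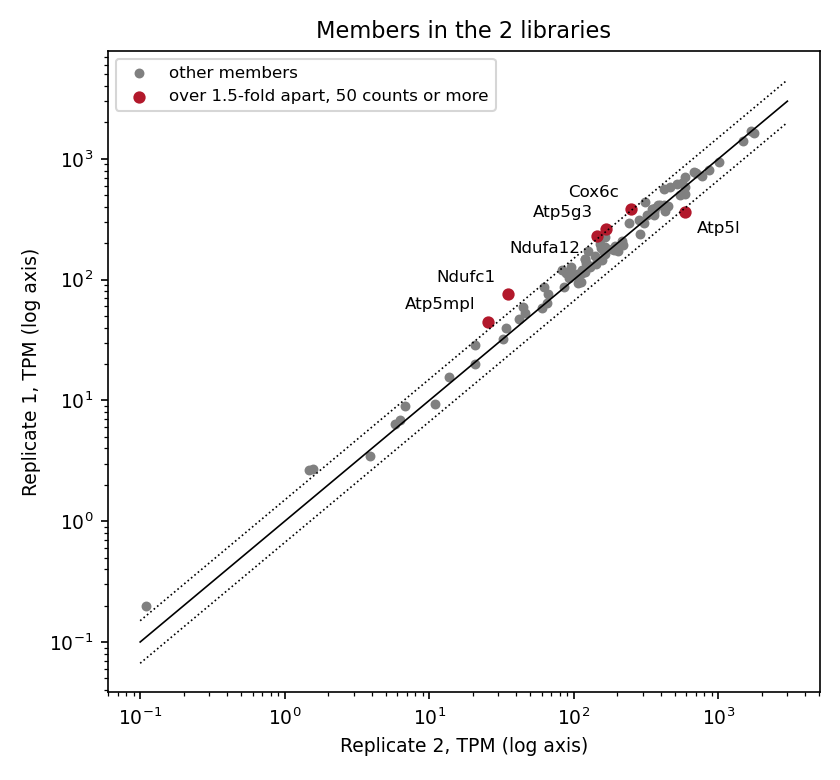
TPM of each member with reads in replicate 1 (vertical, log axis) and replicate 2 (horizontal, log axis), with the line of equality and dotted lines at 1.5-fold; red points are the 6 members beyond 1.5-fold with at least 50 counts on average. The gray points beyond the lines rest on fewer counts.

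At the level of transcripts, 81.9% ± 0.352 of the members' TPM lay on transcripts that the annotation classes as coding (SD, n = 2). The transcript shares and counts given here were computed for the members only, without the same values over all genes. Among 63 members with several annotated transcripts and reads, the leading transcript was coding in both libraries for 51. Coding transcripts held the smaller part of the TPM in at least 1 library for 10 members: Atp5f1, Cox7b, Cox7c, Ndufa10, Ndufa5, Ndufab1, Ndufaf8, Ndufs1, Ndufs3 and Ndufs7. Cox7b, an X-linked complex IV subunit, had 74.0% and 72.2% of its TPM on a non-coding transcript of 180 bases and 3.38% and 4.26% on coding ones. Cox7c had 4.57% and 2.06% on coding transcripts, and its leading transcript of 315 bases held 95.4% and 97.9%. Atp5f1, a peripheral stalk subunit, had 74.8% and 68.7% on a transcript classed as subject to nonsense-mediated decay. A short model raises TPM per count, and how well reads of 36 bases separate overlapping transcripts was not tested.

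The 10 genes admitted by their letters that are not subunits were lower. Their median was 9.05 ± 0.269 TPM (SD, n = 2), against 172 ± 13.1 TPM for the 85 subunit and cytochrome c genes. The 8 complex I assembly factors ran from Ndufaf5 with 2.63 and 1.48 TPM to Ndufaf3 with 94.8 and 112 TPM. Cox7a2l had 113 TPM without its copy, as given above, and Atp5s, a coupling factor, 3.44 and 3.92 TPM. The wider list of 45 assembly factors, which contains these 8, had 43 that reached 1 TPM in each library and a median of 14.3 TPM; its highest was Cox17, a copper chaperone, with 335 and 222 TPM, and Pet117 had no counts.

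The mitochondrially encoded partners covered a wide range. All 13 reached 1 TPM in both libraries, with a median of 2048 ± 33.3 TPM and 4.97% ± 0.218 of all TPM (SD, n = 2). They ran from mt-Nd3 with 24.8 and 113 TPM to mt-Atp8 with 15669 and 14689 TPM. The libraries differed most for mt-Co3, with 732 and 35.8 TPM. These RNAs were measured after poly(A) selection, and the nuclear genome holds copies of mitochondrial DNA, so their levels are not set against the nuclear members by a ratio.

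Of 12 regulators of mitochondrial genes, 11 reached 1 TPM in both libraries. Nrf1, whose product binds the NRF1 motif, had 51.0 and 65.7 TPM, Gabpa, an ETS factor, 21.96 and 17.95 TPM, and Yy1 23.3 and 18.4 TPM. The coactivator Ppargc1a had 0 counts, and its relatives Pprc1 and Ppargc1b had 27.6 ± 3.69 and 1.41 ± 0.04 TPM (SD, n = 2). Atpif1, the inhibitor of ATP synthase, which is needed for haem synthesis in mouse and zebrafish erythroblasts, had 1192 and 832 TPM. Ucp2, an inner membrane carrier, had 1323 and 1363 TPM, and the brown fat uncoupler Ucp1 had no reads.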

How the data were processed

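Per the deposited file manifests, reads of each library were aligned to mm10 and quantified with GENCODE M4; which aligner and quantifier did so is not given in the sources used here. The authors' tables, per the file headers, hold an expected count per gene and transcript, TPM, a posterior mean TPM and the percent of a gene's TPM on each transcript. Whether counting used strand is not stated. GENCODE M21 gave symbols, gene classes and coordinates and matched 42462 of 69691 rows. Length minus effective length was 35, as for reads of 36 bases.

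The members and gene lists were chosen with earlier results of these data known. Means and SDs are over 2 libraries. Paralogue ratios used log2 of TPM plus 1; for forms with 3 counts or fewer, a bound against 3 counts or a ratio with its 95% interval replaced the planned ratio. Library scaling and fold counts were tested on simulated data. Genes named were the 3 highest and lowest per complex, members under 1 TPM, paralogues, members over 1.5-fold apart between libraries with 50 counts or more, and members with the smaller part of TPM on coding transcripts; others were chosen after their values were seen. Rounded expected counts were scaled with edgeR 4.0.16 and DESeq2 1.42.0 (R 4.3.3) as alternatives. Copies were genes over 10000 bases away sharing at least 100 windows of 36 bases with a member and at least 25% of their own windows.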

Additional observations from a re-analysis of the deposited data

How the results depend on the processing

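Apart from leaving out a library, 105 alternative values were computed: 75 stayed within their limit, 26 moved and 4 changed sign. For values with an SD, the limit was that SD over 2 libraries, so it was wide where the libraries differed. The complex IV median, with an SD of 93.0 TPM, stayed within it at 372 TPM with Ndufa4 counted in complex I. The log2 ratio of Cox7a2 to Cox7a2l, with an SD of 0.00038, moved from 0.5208 to 0.5198 with posterior mean TPM. Some of the 75 could not move, so the tally does not measure stability. Examples are copies added to Cox6b1 and Cox6b2, which have none, and detected members alone for complexes I, II, III and V, where all were detected. Adding copies (as summed TPM or as counts on the member's length) and M21 lengths were chosen after seeing the data. The median over members became 181 TPM without adult globins, 172.28 TPM without the non-subunits and 172.31 TPM with copies. The members' share of TPM became 1.38% in expected counts, 2.87% without globins and 2.77% with copies. Posterior mean TPM gave medians of 131 TPM for complex I, 123 TPM for complex II and 350 TPM for complex V; summed copies gave 163 TPM for complex I and 383 TPM for complex V, and copy counts on the member's length 152 and 383 TPM. Detected members alone gave 538 TPM for complex IV. In expected counts, the log2 bounds were 10.81 for Cox4i1 to Cox4i2, 9.60 for Cox7b to Cox7b2, and 11.32 for Cox8a to Cox8b and to Cox8c; the log2 ratios were 1.09 for Cox6b1 to Cox6b2, -3.01 for Ndufa4 to Ndufa4l2, 0.75 for Cox7a2 to Cox7a1 and -0.012 for Cox7a2 to Cox7a2l. The last ratio was 0.52 in TPM, 0.52 with posterior mean TPM, 0.52 with a pseudocount of 0.1, 0.72 with M21 lengths, -1.10 with summed copies and -0.17 with copy counts on the member's length. With M21 lengths, Cox6b1 to Cox6b2 was 0.66 and Cox7a2 to Cox7a1 -0.0505. Coding transcripts held 88.3% of expected counts. Lengths enter TPM and not counts; the cause of the other shifts was not tested. No paired analysis was possible because the libraries form 1 group. Leaving out 1 of 2 libraries moves their mean by less than their SD by construction, so it says nothing about stability. Depth limits members without reads to 3 counts per library.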
